A study of Homo sapiens with 28 samples.

Results

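Expression of 9 genes of the KLF family of transcription factors was followed in a human breast cancer line treated with BET inhibitors and with their VHL forms. The genes were KLF3, KLF4, KLF5, KLF6, KLF9, KLF10, KLF11, KLF13 and KLF16, taken as the rows with these symbols, and all 9 were found among 16482 genes in the table of all reads and among 13029 genes in the table of T>C reads. The cells were MDA-MB-453, a luminal line, grown in culture and given JQ1, JQ1-VHL, IBET151, IBET151-VHL or, as the control, DMSO for 3 h. JQ1 and IBET151 block the acetyl-lysine pockets of BET proteins, and the VHL forms carry, by their names, a ligand of the VHL ubiquitin ligase. All cultures, DMSO included, received 0.1 mM 4-thiouridine for the last 60 min, which marks RNA made in that hour by T-to-C changes in its reads. Such reads are here called T>C reads. Drosophila S2 cells, at 10%, were mixed into every sample, DMSO included, before fractionation. Each mixture was split with digitonin into a nuclear and a cytoplasmic fraction. There were 3 libraries per fraction for JQ1, JQ1-VHL, IBET151-VHL and DMSO and 2 for IBET151, 28 in all. The labels give no doses and do not say whether replicates came from separate cultures, so a p-value measures the spread between these libraries, which may be technical.

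KLF proteins are zinc-finger factors that bind GC-rich and CACCC elements in promoters and enhancers. KLF3 is a repressor that recruits CtBP. KLF4, a reprogramming and differentiation factor, KLF5, which promotes growth of epithelial cells, and KLF6, an immediate early gene, act largely as activators. KLF9, KLF10, KLF11, KLF13 and KLF16 recruit the SIN3A corepressor, and KLF10 and KLF11 were named as early genes induced by TGF-beta. Messages of immediate early factors are short-lived, so their level follows transcription closely, which is why a pulse of labelled uridine is informative for this family.

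RefSeq promoter windows (GRCh38.p14, 250 bases before to 50 after the start) were matched for KLF4, KLF5, KLF6, KLF9, KLF11, KLF13 and KLF16, and not for KLF3 and KLF10. Windows of 3 members are shown because they differ in the response described below, KLF4 being lower in both fractions with the VHL compounds, KLF6 lower in the cytoplasm alone, and KLF16 past no threshold in all cytoplasmic reads. Capitals mark the GC box (GGGCGG or CCGCCC, the element bound by the KLF and SP family) and the E box (CACGTG), and matches of the 2 motifs can share an end base. The KLF4 window (chr9:107489720-107490019, minus strand), the KLF6 window (chr10:3785160-3785459, minus strand) and the KLF16 window (chr19:1863530-1863829, minus strand) read 5′ to 3′ as follows.
KLF4: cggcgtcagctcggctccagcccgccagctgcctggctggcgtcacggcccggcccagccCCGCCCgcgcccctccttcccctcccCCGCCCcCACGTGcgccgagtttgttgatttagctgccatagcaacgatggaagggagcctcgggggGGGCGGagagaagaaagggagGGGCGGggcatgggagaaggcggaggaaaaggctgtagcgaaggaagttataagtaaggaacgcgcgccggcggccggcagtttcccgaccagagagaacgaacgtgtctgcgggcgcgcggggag
KLF6: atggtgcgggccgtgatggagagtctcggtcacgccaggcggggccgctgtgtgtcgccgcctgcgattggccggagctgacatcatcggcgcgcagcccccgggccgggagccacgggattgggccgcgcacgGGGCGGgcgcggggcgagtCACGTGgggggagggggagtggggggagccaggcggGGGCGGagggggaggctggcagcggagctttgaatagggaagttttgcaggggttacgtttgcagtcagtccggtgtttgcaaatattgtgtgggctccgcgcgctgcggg
KLF16: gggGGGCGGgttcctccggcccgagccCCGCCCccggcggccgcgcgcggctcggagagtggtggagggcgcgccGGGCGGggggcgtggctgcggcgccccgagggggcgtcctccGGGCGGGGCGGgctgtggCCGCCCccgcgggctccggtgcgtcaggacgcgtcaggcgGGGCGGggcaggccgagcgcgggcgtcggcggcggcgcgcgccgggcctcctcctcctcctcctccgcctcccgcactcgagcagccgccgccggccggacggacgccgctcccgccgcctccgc
The GC box occurred 4 times in the KLF4 window, 2 times in the KLF6 window and 7 times in the KLF16 window, counted on both strands with overlaps allowed, and was present in 45.0% of 35116 promoter windows. The E box was present once in KLF4, once in KLF6 and in none of the KLF16 window, against 7.26% of all windows. In the longest principal coding transcripts of GENCODE v29 (GRCh38), the AU-rich pentamer ATTTA was found in the 3′ UTR of 9 of 9 members, against 69.3% of 15448 genes. All members but KLF4 (899 bases) had a 3′ UTR longer than the median of 1109 bases, up to 5600 in KLF13, which favours a match. Per 1000 bases ATTTA occurred 0.893 times in KLF13, 0.971 in KLF16 and 1.69 (KLF6) to 3.02 (KLF5) in the others, against a median of 1.58. The nonamer TTATTTATT, a core of AU-rich decay elements, was present in KLF5 and KLF16, against 8.58% of genes, and these 2 sites are shown with the nonamer in capitals because they sit in genes with unlike shares of T>C reads.
KLF5 (chr13:73077179-73077203, plus strand): gtttatctTTATTTATTttgtggta
KLF16 (chr19:1853694-1853718, minus strand): atcctggcTTATTTATTttcctctg

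The deposited values are reads multiplied by 1 spike-in (ERCC) factor per library, here called ERCC-scaled reads. The ERCC RNA was added by the mass of RNA recovered from a fraction, so a value is per mass of that RNA and does not carry cell number or the total RNA per cell. Values therefore compare the same gene within a fraction, and in these bulk samples fewer cells expressing a gene cannot be told apart from less of its RNA per cell. Nuclear libraries held 17851589 to 38658448 reads, of which 214725 to 1928012 were T>C reads, and cytoplasmic libraries 30647584 to 68475299 reads, of which 82264 to 379401 were T>C reads. Members had between 37 and 5029 reads per cytoplasmic library and between 8 and 5783 per nuclear library. The summed nuclear values of the libraries numbered 1 in JQ1, JQ1-VHL, IBET151-VHL and DMSO were 13858000 to 22304000, against 38469200 to 67900700 in the other nuclear libraries. The nuclear spread between replicates is therefore wide, and values of the 4 low libraries stand out below. All 8 luminal markers searched were detected, and basal markers summed to at most 0.000611% and stromal and immune markers to at most 0.0161% of a library.

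In the cytoplasm KLF3, KLF4, KLF6, KLF9 and KLF11 fell with each of the VHL compounds, and no member rose. KLF2, a family gene outside the 9, rose with both, as given below. With JQ1-VHL 5 of 9 members fell, against 12.5% of all 12470 genes lower and 12.9% called in either direction, and with IBET151-VHL 5 of 9 fell, against 15.4% lower and 15.8% called. The 9 genes were chosen with earlier results of these data known, so a count above these shares is no test of the family. All comparisons with DMSO share the same 3 DMSO libraries per fraction. The 9 members' median log2 change was -0.93 with JQ1-VHL and -1.15 with IBET151-VHL, against -0.17 and -0.15 over all genes. KLF13 and KLF16 had the smallest changes of the 9 and did not pass. Every change in this and the next paragraphs is a limma estimate on log2(value + 1) with Benjamini-Hochberg adjustment over all genes tested, and a member is said to rise or fall at an adjusted p under 0.05. How many of all genes have groups that do not overlap was not counted, so remarks on overlap only describe the values.

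KLF3, the CtBP-binding repressor, had 486, 477 and 363 ERCC-scaled reads in JQ1-VHL cytoplasm and 397, 239 and 236 in IBET151-VHL cytoplasm, against 1177, 1155 and 964 in DMSO. All 6 libraries lay below every DMSO library, and KLF3 fell by 1.32 ± 0.30 (SE) on the log2 scale with JQ1-VHL (adjusted p 0.00899) and by 1.95 ± 0.30 with IBET151-VHL (adjusted p 0.000342). KLF9, a SIN3A-recruiting factor, had 42.9, 70.7 and 60.9 with JQ1-VHL and 34.3, 44.1 and 22.1 with IBET151-VHL, against 157, 200.1 and 155 with DMSO. Its fall of 2.36 ± 0.27 with IBET151-VHL was the largest of the 9 (adjusted p 2.92e-05), and with JQ1-VHL it fell by 1.56 ± 0.27 (adjusted p 0.00145). KLF6 had 525, 516 and 463 with JQ1-VHL and 539, 373 and 242 with IBET151-VHL, against 1121, 1363 and 829.9 with DMSO. The groups did not overlap, and KLF6 fell by 1.11 ± 0.26 (adjusted p 0.0105) and by 1.57 ± 0.26 (adjusted p 0.000623).

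KLF4 had 35.5, 52.5 and 59.4 ERCC-scaled reads with JQ1-VHL and 39.7, 71.7 and 57.9 with IBET151-VHL, against 71.6, 187 and 137 with DMSO. DMSO replicate 1 was the low control, just under the highest IBET151-VHL library, and KLF4 fell by 1.33 ± 0.33 (adjusted p 0.0136) and by 1.15 ± 0.33 (adjusted p 0.0258). KLF11, one of the TGF-beta inducible early genes, had 179, 287 and 316 with JQ1-VHL and 149, 179 and 263 with IBET151-VHL, against 325, 594 and 579 with DMSO. It fell by 0.93 ± 0.28 (adjusted p 0.0428) and by 1.33 ± 0.28 (adjusted p 0.00377), and the groups did not overlap. KLF13 spanned 169.6 to 253 with JQ1-VHL and 194 to 227 with IBET151-VHL, inside the DMSO range of 159 to 321. KLF16 spanned 1004 to 1207 and 1153 to 1324 with these compounds, against 1249 to 1469 with DMSO, and its changes of -0.31 and -0.14 did not pass. In the JQ1-VHL comparison KLF11 lost its call without JQ1 replicate 1 or 2, JQ1-VHL replicate 1 or 2, either IBET151 library, IBET151-VHL replicate 2 or DMSO replicate 2 or 3, left out 1 at a time (adjusted p 0.0523 to 0.235), KLF4 without JQ1-VHL replicate 1 (0.0836) or DMSO replicate 2 (0.0682), and KLF6 without DMSO replicate 2 (0.0547). In the IBET151-VHL comparison KLF4 lost its call without IBET151-VHL replicate 1 or 3 or DMSO replicate 2 or 3 (adjusted p 0.0621 to 0.117), while KLF10 passed without DMSO replicate 1 in both comparisons (0.00877 and 0.0287).

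**Figure D1:**
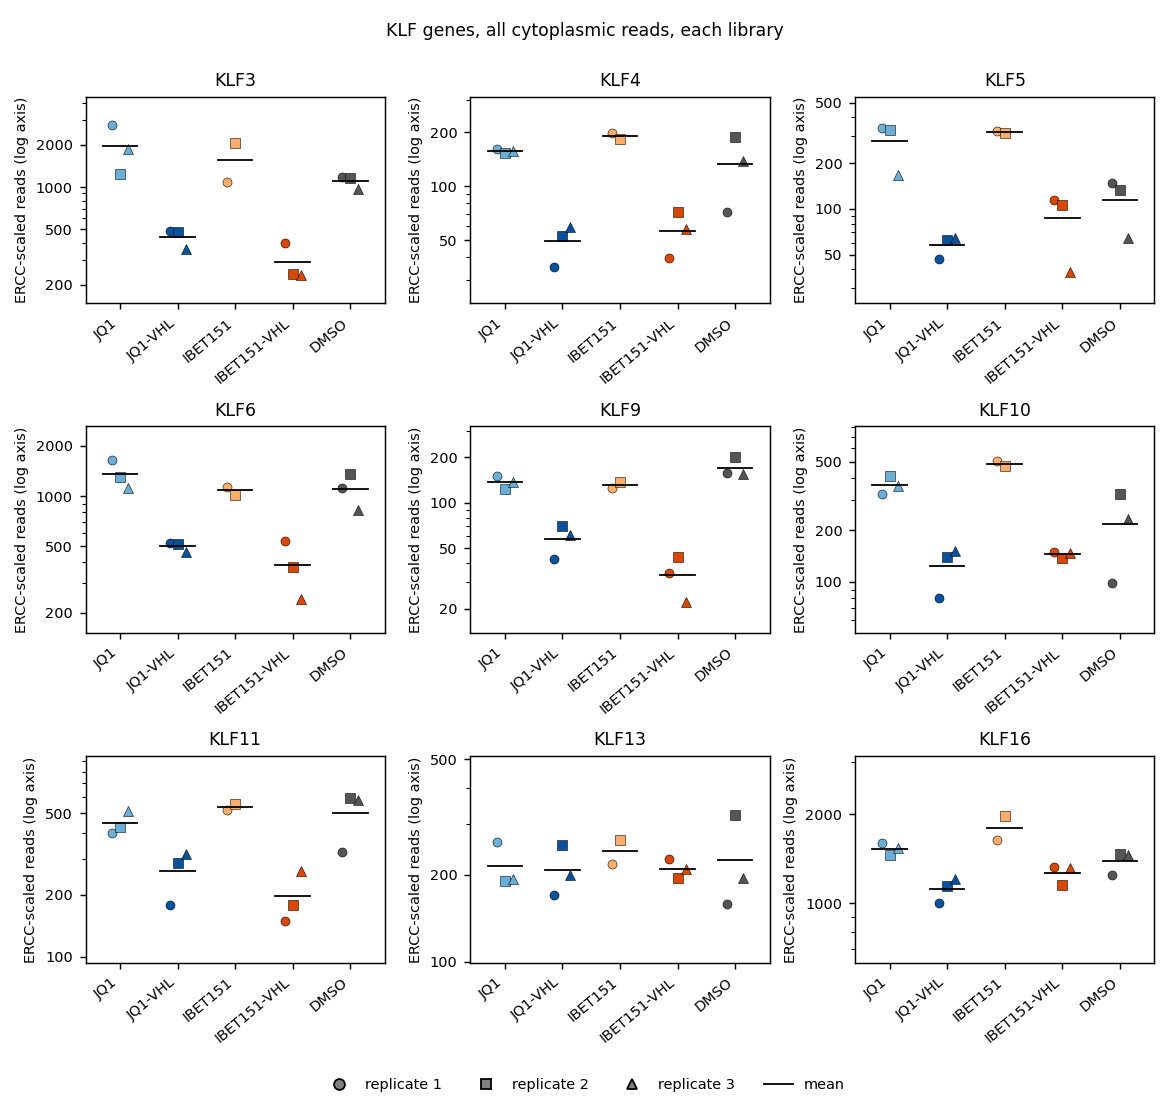
ERCC-scaled reads of the 9 KLF genes in all cytoplasmic reads (vertical log axis, 1 point per library, line at the mean) for JQ1, JQ1-VHL, IBET151, IBET151-VHL and DMSO. For KLF3, KLF6, KLF9 and KLF11 all libraries of both VHL compounds lie below all DMSO libraries, while KLF13 libraries of all groups overlap.

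The parent inhibitors gave another picture, with no member passing the limma test against DMSO, while the means of KLF5 and KLF10 were above those of DMSO. JQ1 gave 0 of 9 members past the threshold, with 4.82% of all genes called, and 3 of 9 at an unadjusted p under 0.05. IBET151 gave 0 of 9, with 2.52% of genes called, and 3 of 9 at an unadjusted p under 0.05. DESeq2 on the recovered reads called 1 member higher with JQ1, KLF5 (1.29% of genes higher), and 2 higher with IBET151, KLF5 and KLF10 (1.5% higher), and edgeR called 0 and 0 (5.36% and 2.35% of genes called). KLF5, the growth-promoting factor, had 342, 332 and 167 ERCC-scaled reads with JQ1 and 326 and 314 with IBET151, against 147, 133 and 64.7 with DMSO. Its log2 changes were 1.29 ± 0.42 (limma adjusted p 0.101) and 1.55 ± 0.47 (adjusted p 0.113). KLF10, the other TGF-beta inducible early gene, had 325, 416 and 361 with JQ1 and 502 and 472 with IBET151, against 99.0, 323 and 233 with DMSO. Its changes were 0.90 ± 0.35 (adjusted p 0.192) and 1.31 ± 0.39 (adjusted p 0.107), with DMSO replicate 1 the low control. The lowest JQ1 library of KLF10, at 324.54, lay just above DMSO replicate 2, at 323.35. Same-numbered cytoplasmic libraries of JQ1 and DMSO deviated together, and with the replicate number as a block KLF5 rose by 1.29 ± 0.30 with JQ1 (adjusted p 0.0189), with 7.6% of genes called. Leaving out IBET151-VHL replicate 3 brought KLF5 past the threshold with both parents (adjusted p 0.044 and 0.049), and leaving out DMSO replicate 2 did so for KLF10 with IBET151 (0.0252). KLF3 was also above DMSO in all JQ1 libraries, at 2767, 1236 and 1879.9, against 1177, 1155 and 964 with DMSO, with a change of 0.76 ± 0.30 (adjusted p 0.207).

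Each VHL compound was then set against its parent, and in both pairs KLF3, KLF4, KLF5, KLF6, KLF9 and KLF10 were lower with the VHL form. These 6 of 9 members fell with JQ1-VHL relative to JQ1 (4.18% of all genes lower, 4.23% called), and 7 of 9 fell with IBET151-VHL relative to IBET151 (7.87% lower, 7.91% called), KLF11 being the other. With the replicate block, KLF11 also fell relative to JQ1, by 0.81 ± 0.19 (adjusted p 0.0199), with 5.58% of genes called. KLF5 had 46.9, 62.5 and 64.6 with JQ1-VHL, against 342, 332 and 167 with JQ1, and fell by 2.20 ± 0.42 (adjusted p 0.00563). With IBET151-VHL it had 115, 106 and 38.2, against 326 and 314 with IBET151, and fell by 2.03 ± 0.47 (adjusted p 0.012). KLF10 had 80.5, 139 and 152 with JQ1-VHL and fell by 1.61 ± 0.35 relative to JQ1 (adjusted p 0.0135). With IBET151-VHL it had 149, 138 and 147, and fell by 1.74 ± 0.39 relative to IBET151 (adjusted p 0.00966). For KLF5 and KLF10 the VHL forms stood below the parents, while their changes against DMSO did not pass, at -0.90 and -0.71 with JQ1-VHL and -0.47 and -0.43 with IBET151-VHL. With IBET151 the counts rest on 2 libraries, and KLF4, KLF5, KLF10 and KLF11 each lost the call without either of them (adjusted p 0.0616 to 0.102). Relative to JQ1, KLF4, KLF9 and KLF10 lost it without JQ1-VHL replicate 1 (adjusted p 0.0534 to 0.1), KLF9 without JQ1 replicate 1 (0.0866) and KLF10 without JQ1 replicate 2 (0.0632). Without the libraries numbered 927 to 937, 3 members, KLF3, KLF4 and KLF10, were lower relative to JQ1 (1.18% of genes lower).

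The 2 parents, and the 2 VHL forms, were also set side by side in the cytoplasm, with the limit that doses are not given and may not match. JQ1 and IBET151 differed for 0 of 9 members in the limma test (0% of genes called), with 0 of 9 at an unadjusted p under 0.05. The log2 differences lay between -0.41 and 0.31, and their 95% intervals reached from -1.26, for KLF5, to 1.03, for KLF3, so a difference of that size remains possible. JQ1-VHL and IBET151-VHL differed for 0 of 9 (0.016% of genes called), with 1 of 9 at an unadjusted p under 0.05. That was KLF9, with a difference of 0.80 and a 95% interval of 0.22 to 1.38. The intervals of the other 8 held 0 and reached from -1.32, for KLF5, to 1.28, for KLF3. DESeq2 and edgeR also called 0 of 9 in both of these comparisons.

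**Figure D2:**
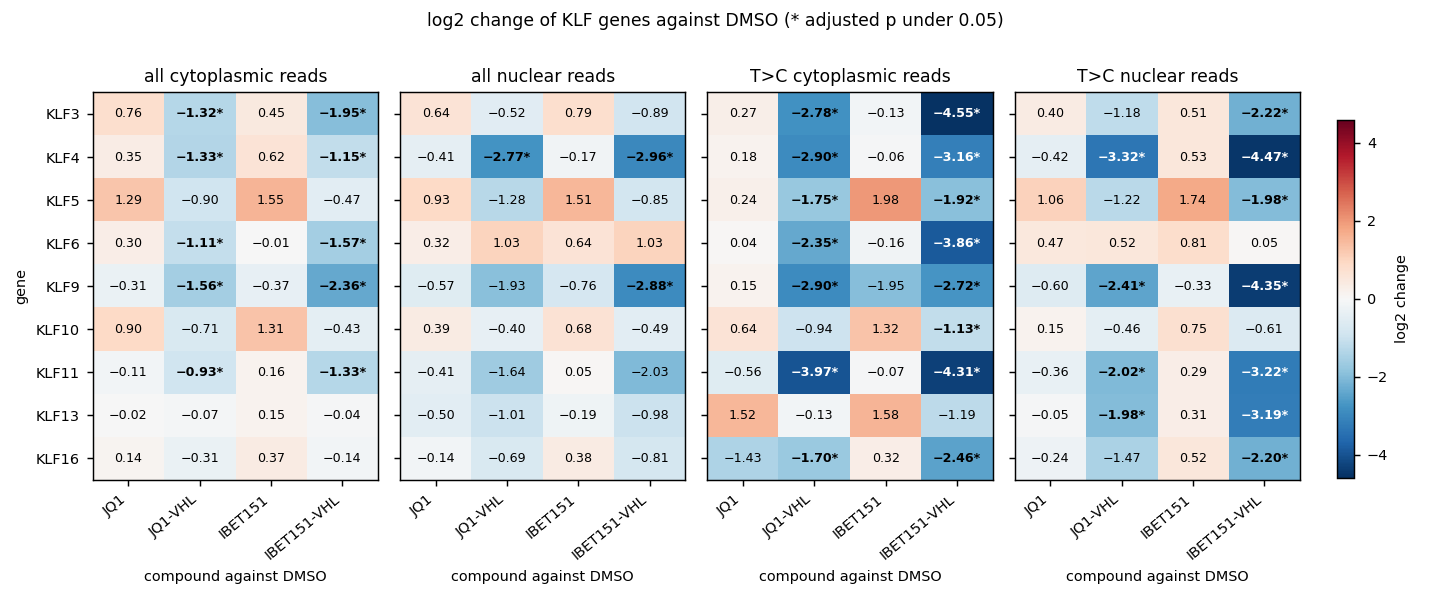
log2 changes of the 9 KLF genes (rows) with each compound against DMSO (columns) in the 4 readouts, blue for lower and red for higher, with an asterisk for an adjusted p under 0.05. In all cytoplasmic reads 5 of 9 members fell with each VHL compound, and KLF6 is the only member whose nuclear change with the VHL compounds is above 0 on the deposited scale. With median-ratio scaling, not drawn here, KLF10 is above 0 too in all nuclear reads, as is KLF3 with JQ1-VHL. In T>C nuclear reads KLF3, KLF5, KLF10 and KLF16 are then above 0 with both.

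In nuclear RNA KLF4 fell with both VHL compounds and KLF9 with IBET151-VHL, and 8 of 9 members had changes below 0 with each on the deposited scale. The median change of all genes was itself below 0, at -0.48 with JQ1-VHL and -0.71 with IBET151-VHL. Those of the members were -1.01 and -0.89. The share of all genes below 0 was not counted, so the 8 of 9 only describes the values. With median-ratio scaling, described below, KLF10 turned to 0.14 and 0.29, neither passing, and KLF3 to 0.02 with JQ1-VHL. With JQ1-VHL 1 of 9 members fell (1.07% of all 14417 genes lower, 1.97% called), and with IBET151-VHL 2 of 9 fell (3.66% lower, 4.55% called). KLF4 had 12.1, 45.5 and 62.2 ERCC-scaled reads in JQ1-VHL nuclei and 6.21, 64.0 and 53.7 in IBET151-VHL nuclei, against 116, 242 and 423 in DMSO nuclei. No library of these groups overlapped DMSO, and KLF4 fell by 2.77 ± 0.72 (adjusted p 0.0198) and by 2.96 ± 0.72 (adjusted p 0.00566). KLF9 had 7.76, 67.5 and 129.9 in IBET151-VHL nuclei, against 141, 425 and 517 in DMSO nuclei, and fell by 2.88 ± 0.72 (adjusted p 0.00734). With JQ1-VHL it had 28.8, 98.5 and 189, overlapping DMSO, and its change of -1.93 ± 0.72 did not pass (adjusted p 0.189). KLF4 lost its call with JQ1-VHL without JQ1-VHL replicate 1 (adjusted p 0.53) or DMSO replicate 2 or 3 (0.0533 and 0.148), and both genes lost theirs with IBET151-VHL without its replicate 1 (0.168 and 0.274). KLF9 passed with JQ1-VHL without DMSO replicate 1 (adjusted p 0.0345), and KLF11 passed with IBET151-VHL without JQ1 replicate 1, IBET151-VHL replicate 3 or DMSO replicate 1 (0.0121 to 0.0403).

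Same-numbered nuclear libraries deviated together in the comparisons without IBET151, the low libraries all being replicate 1. The fit with the replicate number as a block called more members. That block also took in IBET151, whose replicate 1, library number 942, was not low, with a summed value of 41264700. The same-numbered r of IBET151 with DMSO was 0.429 for replicate 1 and -0.188 for replicate 2. Replicate 3 has library numbers 953 and 955 with the VHL compounds, and 963 and 964 with DMSO and JQ1. Counts with the run of library numbers as the block are given at the end. With the block and JQ1-VHL, 1 member, KLF6, rose (2.62% of genes higher) and 5 fell (23.4% lower, 26.1% called). With the block and IBET151-VHL, 1 member, KLF6, rose (2.29% higher) and 7 fell (43.7% lower, 46% called). KLF11 had 80.4, 335 and 295 with JQ1-VHL and 55.1, 195 and 322 with IBET151-VHL, against 242, 819 and 1224 with DMSO. In the blocked fit it fell by 1.64 ± 0.34 (adjusted p 5.35e-05) and by 2.03 ± 0.34 (adjusted p 1.10e-07). KLF13 fell by 1.01 ± 0.33 (adjusted p 0.0134) and by 0.98 ± 0.33 (adjusted p 0.00924) in that fit, having 162, 669 and 604 with JQ1-VHL and 236, 462 and 631 with IBET151-VHL, against 456, 1026 and 1139 with DMSO. KLF10 did not pass in either fit, with changes of -0.40 and -0.49. KLF16 spanned 585 to 1799 with JQ1-VHL and 593 to 1511 with IBET151-VHL, against an overlapping 831 to 4119 with DMSO. Its blocked change passed with IBET151-VHL only, at -0.81 ± 0.30 (adjusted p 0.0223), and was -0.69 with JQ1-VHL. The median changes of all genes, without the block, were -0.48 with JQ1-VHL and -0.71 with IBET151-VHL. Without the libraries numbered 927 to 937, which hold the low nuclear replicates, the fit with no block called 4 members with JQ1-VHL, KLF6 higher (1.5% of genes higher) and KLF4, KLF9 and KLF11 lower (5.57% lower, 7.07% called). With IBET151-VHL it called 5, KLF6 higher (1.31% higher) and KLF4, KLF9, KLF11 and KLF13 lower (19.6% lower, 20.9% called). Without those numbered 963 to 973 it called 0 and 0 (0.859% and 2% of genes called). In nuclei KLF5 had 266, 548 and 359 with JQ1 and 612 and 518 with IBET151, all above the 140.0, 251 and 216 of DMSO, with changes of 0.93 ± 0.65 and 1.51 ± 0.72 that did not pass. KLF3 was likewise above DMSO in all libraries of both parents, at 1741, 2216 and 3414 with JQ1 and 2040.1 and 3366 with IBET151, against 1224, 1675 and 1706 with DMSO, with changes of 0.64 ± 0.72 and 0.79 ± 0.80 that did not pass. JQ1 and IBET151 gave 0 of 9 members against DMSO in nuclear reads (0.0694% and 0.0971% of genes called), with 0 called by edgeR and DESeq2 too and 0 and 1 of 9 at an unadjusted p under 0.05. Setting JQ1-VHL against JQ1 gave 0 of 9 without the block (0.298% of genes called; 2 of 9 at an unadjusted p under 0.05, DESeq2 0, edgeR 1 lower, KLF4, with 0.257% of genes lower) and 5 lower with it (3.88% lower, 5.25% called). Setting IBET151-VHL against IBET151 gave 0 of 9 (0.541% called), with 5 of 9 at an unadjusted p under 0.05, edgeR calling 0 and DESeq2 1 lower, KLF5, with 0.624% of genes lower. Relative to both parents 1 member passed, KLF4, without JQ1 replicate 1 (adjusted p 0.00699 and 0.02), without IBET151-VHL replicate 1 relative to JQ1 (0.0417), and without JQ1 replicate 3, IBET151-VHL replicate 2 or DMSO replicate 1 or 3 relative to IBET151 (0.0234 to 0.0441).

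**Figure D3:**
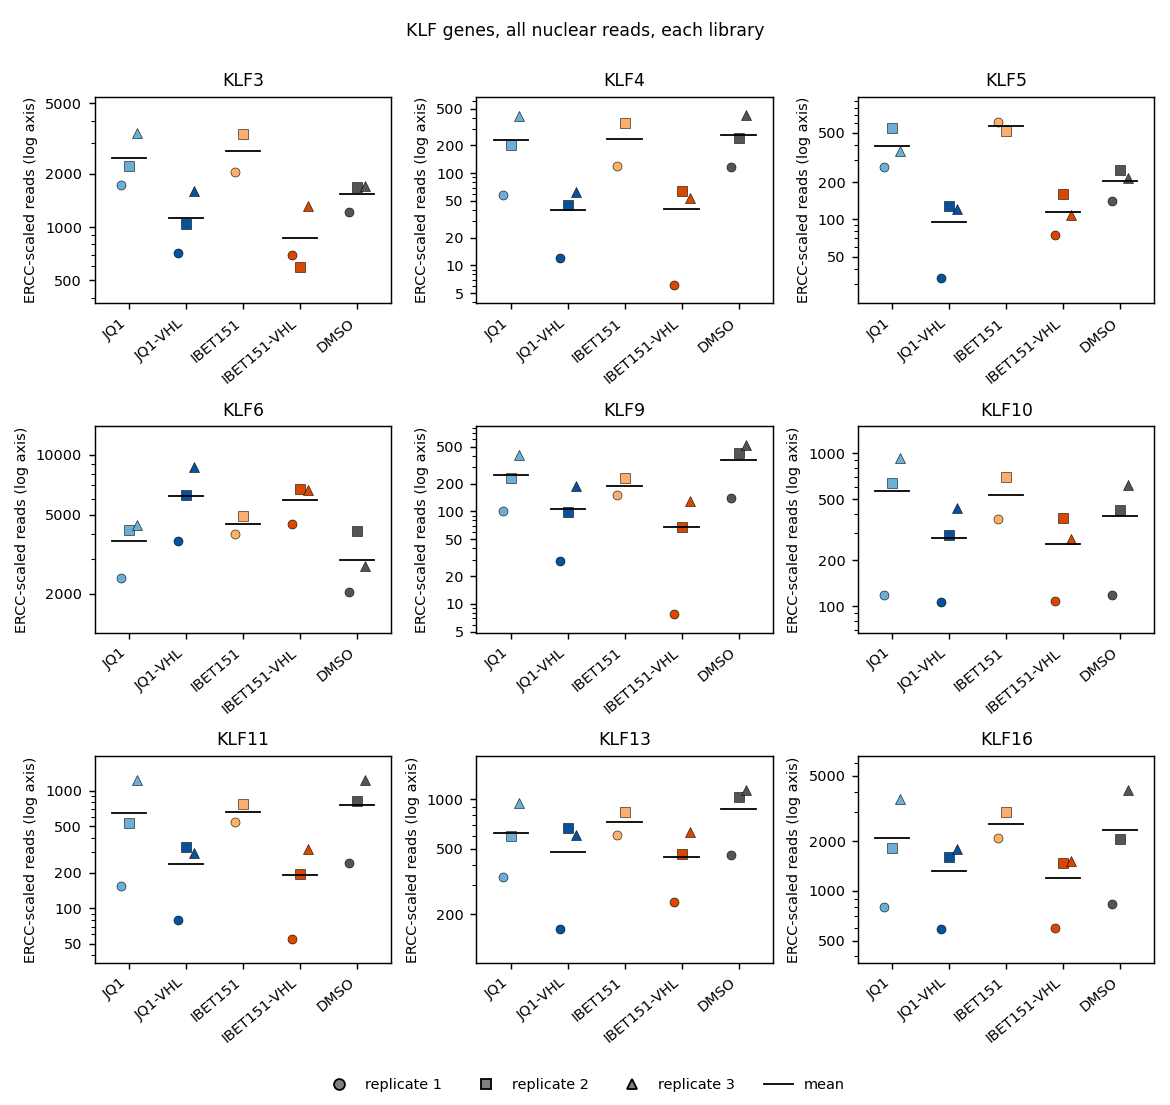
ERCC-scaled reads of the 9 KLF genes in all nuclear reads (vertical log axis, 1 point per library, line at the mean) for JQ1, JQ1-VHL, IBET151, IBET151-VHL and DMSO. Circles mark replicate 1, the lowest library of most groups, and KLF6 alone has higher means with both VHL compounds than with DMSO.

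KLF6 was the member whose RNA was lower in the cytoplasm while its nuclear mean was higher with both VHL compounds. In nuclei it had 3665, 6251 and 8661 ERCC-scaled reads with JQ1-VHL and 4489, 6683 and 6625 with IBET151-VHL, against 2031, 4141 and 2746 with DMSO. All IBET151-VHL libraries and 2 of 3 JQ1-VHL libraries lay above all DMSO libraries. The log2 change was 1.03 ± 0.75 with each compound (adjusted p 0.773 and 0.508), so it did not pass without the block. With the replicate block, and its limits given above, KLF6 rose by 1.03 ± 0.29 with JQ1-VHL (adjusted p 0.00344) and by 1.03 ± 0.29 with IBET151-VHL (adjusted p 0.00181). With median-ratio scaling, which sets the median nuclear change of all genes near 0 in place of -0.48 and -0.71, it rose by 1.58 ± 0.32 (adjusted p 0.00693) and by 1.81 ± 0.32 (adjusted p 0.00177), with 8.93% and 14.6% of genes called. JQ1 gave 2401, 4196 and 4429 and IBET151 3996 and 4923 in nuclei, and neither parent's change passed (0.32 and 0.64).

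The nuclear change of KLF6 minus its cytoplasmic change was 2.14 ± 0.69 with JQ1-VHL (adjusted p 0.953) and 2.60 ± 0.69 with IBET151-VHL (adjusted p 0.39). No member passed this test of the difference between fractions with any compound, and of 14458 genes 0% passed with JQ1-VHL and 0.00692% with IBET151-VHL. At an unadjusted p under 0.05 1 of 9 passed with each VHL compound, and DESeq2 called KLF6 higher with IBET151-VHL (0.0138% of genes higher) and edgeR 0. With a replicate term within each fraction, added after the data were seen, the same differences had an SE of 0.32 and adjusted p of 0.00139 and 2.32e-05. In that fit 0.0138% of all genes passed with JQ1-VHL, KLF6 being 1 of 2 genes, and 2.38% with IBET151-VHL, where KLF4 also passed in the other direction at -1.81 ± 0.49 (adjusted p 0.0461). With 1 replicate term shared by both fractions the differences of KLF6 had an adjusted p of 0.347 and 0.0372, with 0.0415% and 0.214% of genes called. With median-ratio scaling the differences were 2.49 ± 0.38 (adjusted p 0.00342) and 3.19 ± 0.38 (adjusted p 9.0e-05), with 0.387% and 0.92% of genes called.

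The nuclear KLF6 reads of the VHL compounds were split into reads with and without T>C. A read of RNA made in the labelled hour can also lack a T-to-C change, so reads without T>C need not be older RNA. T>C reads of KLF6 in nuclei were 851, 1712 and 2161 with JQ1-VHL and 807, 1339 and 1081 with IBET151-VHL, against 749, 1684 and 841 with DMSO. These ranges overlapped, and the changes of 0.52 ± 0.70 and 0.05 ± 0.70 did not pass, while the median change of all genes was -1.92 and -3.12. Nuclear KLF6 reads without T>C were 2814, 4539 and 6499.8 with JQ1-VHL and 3682, 5344 and 5544 with IBET151-VHL, all above the 1282, 2457 and 1905 of DMSO. In cytoplasm T>C reads of KLF6 were 32.9, 34.4 and 36.4 with JQ1-VHL and 9.42, 15.6 and 10.1 with IBET151-VHL, against 179, 209 and 157 with DMSO. They fell by 2.35 ± 0.34 (adjusted p 2.13e-06) and by 3.86 ± 0.34 (adjusted p 2.35e-10). The T>C share of KLF6 was 25.2% ± 2.10 (SD, n = 3) in JQ1-VHL nuclei and 18.1% ± 1.86 in IBET151-VHL nuclei, against 36.1% ± 5.08 in DMSO nuclei. In cytoplasm it was 6.93% ± 0.828 and 3.37% ± 1.41, against 16.7% ± 1.92 with DMSO. Over whole libraries, nuclear T>C shares were 1.92% to 2.41% with JQ1-VHL and 1.10% to 1.72% with IBET151-VHL. In DMSO nuclei they were 8.02%, 6.34% and 2.25%, replicate 3 lying inside the JQ1-VHL range. Cytoplasmic libraries had 0.262% to 0.302% and 0.235% to 0.260%, against 0.747% to 0.818% in DMSO. A lower T>C share was thus not particular to KLF6.

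**Figure D4:**
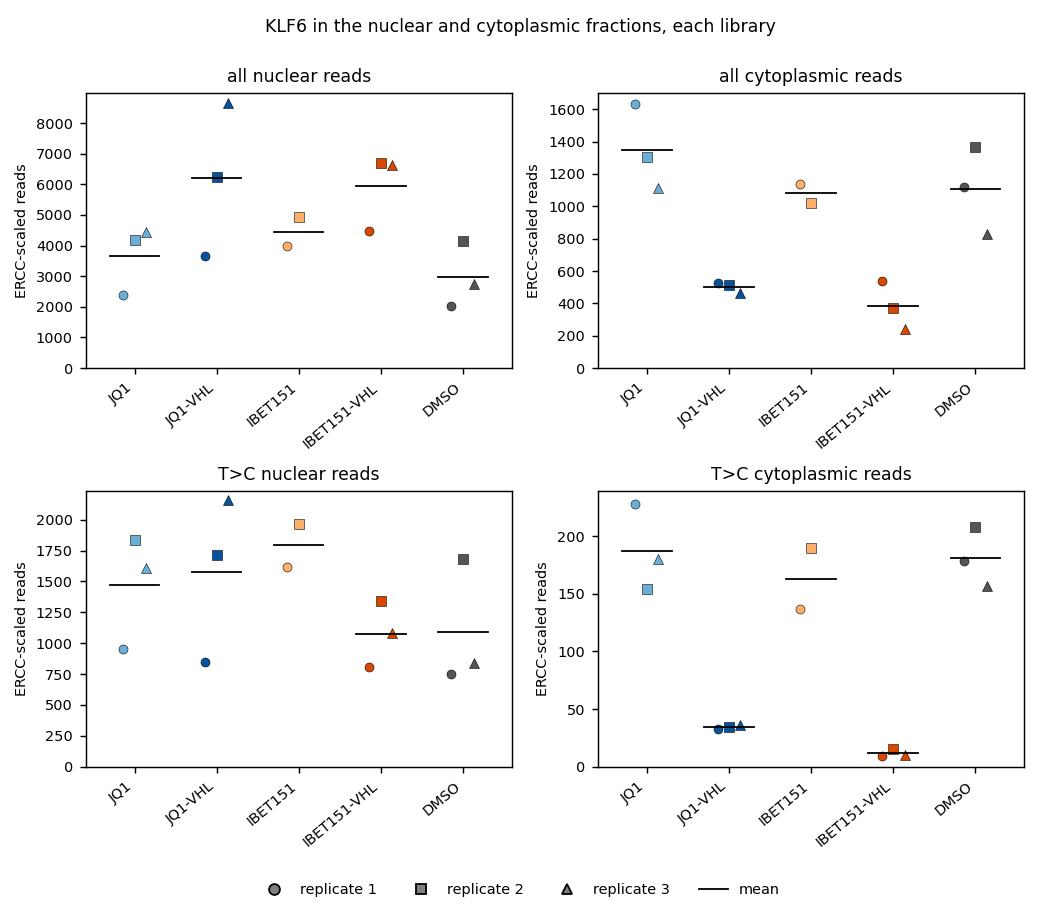
ERCC-scaled KLF6 reads per library (vertical linear axes from 0, line at the mean) in all nuclear, all cytoplasmic, T>C nuclear and T>C cytoplasmic reads for JQ1, JQ1-VHL, IBET151, IBET151-VHL and DMSO. With the VHL compounds KLF6 lies high in all nuclear reads and low in both cytoplasmic panels, and its T>C nuclear reads overlap those of DMSO.

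In DMSO the members separated by how much of their RNA was labelled within 60 min. The T>C share is the gene's T>C reads over all its reads in 1 library. It depends on the uridines in the counted 3′ end as well as on new RNA, and no library without 4-thiouridine was analysed here, so the background of conversions is unknown. In DMSO cytoplasm KLF10 had 17.4% ± 1.81 T>C reads (SD, n = 3) and KLF6 16.7% ± 1.92, both at the 99.8 percentile of 9887 genes, whose median was 0.669%. KLF4 followed with 10.3% ± 0.924 and KLF11 with 8.63% ± 1.76, while KLF9 (4.94%), KLF5 (4.87%) and KLF3 (4.32%) lay close together and overlapped. KLF13 (1.19%) and KLF16 (0.849%) were near the median of all genes. In DMSO nuclei KLF10 (39.3% ± 1.37) and KLF6 (36.1% ± 5.08) again led, against a median of 7.06% over 10997 genes, and KLF16 (3.03%) and KLF13 (2.68%) lay below that median. Over all reads of a library the T>C shares of the nuclear DMSO libraries were 8.02%, 6.34% and 2.25%, replicate 3 being the low one. The 2 genes with the smallest cytoplasmic changes with the VHL compounds, KLF13 and KLF16, had the lowest T>C shares in both fractions. The cytoplasmic share of KLF13 rests on 6, 0 and 2 T>C reads. Other members did not follow that order. KLF10, with the highest share, did not pass in all cytoplasmic reads with either VHL compound, and KLF9, at 4.94%, had the largest fall with IBET151-VHL. A relation between share and change was not tested. KLF13 also had the highest nuclear over cytoplasmic value in DMSO, a log2 ratio of 1.91 ± 0.55 (SD, n = 3), against a median of 1.25 over 13528 genes, and KLF11 the lowest at 0.37 ± 0.75.

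**Figure D5:**
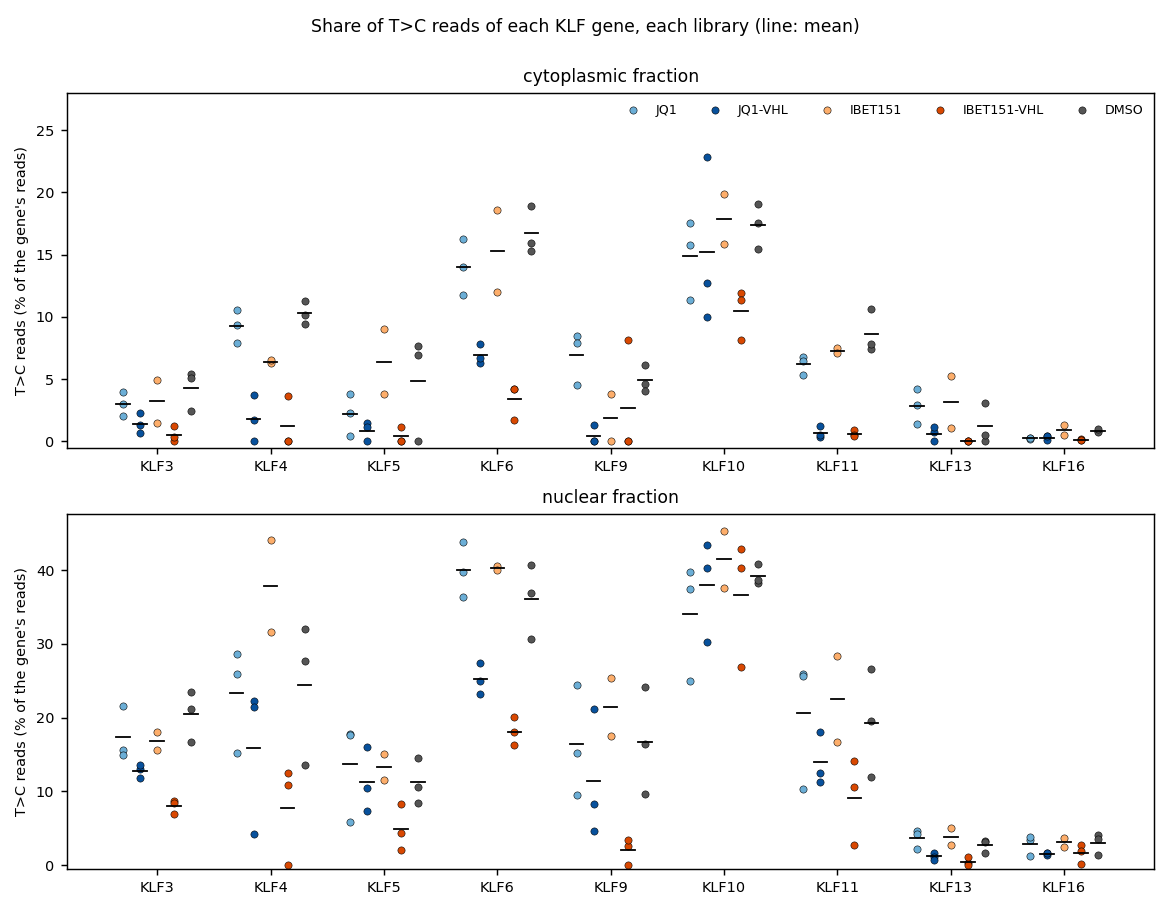
T>C reads in percent of each KLF gene's reads (vertical axis), 1 point per library and a line at the mean, in the cytoplasmic (top) and nuclear (bottom) fractions for JQ1, JQ1-VHL, IBET151, IBET151-VHL and DMSO. KLF10 and KLF6 have the highest DMSO shares in both fractions, and KLF13 and KLF16 the lowest.

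T>C reads of most genes fell with the VHL compounds, and most KLF members were among them. In cytoplasm 7 of 9 members fell with JQ1-VHL, against 82.8% of 6300 genes lower and 83% called, and 8 of 9 with IBET151-VHL, against 88.3% lower and 88.4% called, so the members' shares were near those of all genes. The members' median changes were -2.35 and -2.72, against -2.42 and -2.89 over all genes. KLF11 had 0.670, 3.62 and 1.49 with JQ1-VHL and 1.35, 0.864 and 1.19 with IBET151-VHL, that is 1 to 4 reads per library, against 34.6, 43.9 and 45.5 with DMSO. It fell by 3.97 ± 0.49 (adjusted p 2.52e-07) and by 4.31 ± 0.49 (adjusted p 1.82e-08). KLF3 had 3.35, 6.34 and 8.17 with JQ1-VHL and 0, 0.864 and 2.98 with IBET151-VHL, against 29.0, 62.5 and 49.2 with DMSO, and fell by 2.78 ± 0.59 and by 4.55 ± 0.59 (adjusted p 0.000149 and 1.17e-07). KLF4 had 0, 0.906 and 2.23 with JQ1-VHL and 0, 2.59 and 0 with IBET151-VHL, against 7.25, 21.1 and 12.9 with DMSO. KLF16 spanned 0.906 to 5.20 with JQ1-VHL and 0.864 to 2.02 with IBET151-VHL, against a lowest value of 10.5 with DMSO. No library of these groups overlapped DMSO for KLF4 or KLF16, and KLF4 fell by 2.90 ± 0.62 and 3.16 ± 0.62 (adjusted p 0.000174 and 4.45e-05), KLF16 by 1.70 ± 0.58 and 2.46 ± 0.58 (adjusted p 0.00887 and 0.000336). KLF10 was the least lowered of the strongly labelled members, with 8.05, 31.7 and 19.3 with JQ1-VHL and 12.1, 16.4 and 16.7 with IBET151-VHL, against 15.3, 61.6 and 40.9 with DMSO. Its changes were -0.94 ± 0.49 (adjusted p 0.0742) and -1.13 ± 0.49 (adjusted p 0.0318). KLF13 had 0 T>C reads of 912 in IBET151-VHL cytoplasm, which allows a share of up to 0.329%, counting error only, against 4.83, 0 and 1.03 scaled T>C reads in DMSO. Fitted changes at such low counts move with the pseudocount and are no bounds. With median-ratio scaling, which moved the median change of all genes to -0.86 with JQ1-VHL and -1.23 with IBET151-VHL, fewer members passed. With JQ1-VHL none was higher and 1, KLF11, was lower (2.65% of genes higher, 19.1% lower), and KLF16 stood at 0.15. With IBET151-VHL KLF10 was higher, at 1.72 ± 0.45, and KLF3, KLF6 and KLF11 were lower (5.41% of genes higher, 36.8% lower). KLF5 lost its T>C call with JQ1-VHL without JQ1 replicate 1, any JQ1-VHL library, either IBET151 library or DMSO replicate 1 or 2 (adjusted p 0.0526 to 0.249). With IBET151-VHL it lost it without IBET151-VHL replicate 2 or 3 or DMSO replicate 1 or 2 (0.0777 to 0.179). KLF16 lost its call without JQ1-VHL replicate 2 (adjusted p 0.0668), and KLF10 its call with IBET151-VHL without IBET151-VHL replicate 1 or DMSO replicate 2 or 3 (0.0838 to 0.208). KLF10 passed with JQ1-VHL without JQ1-VHL replicate 2 (0.0196) or DMSO replicate 1 (0.00914), and KLF13 with IBET151-VHL without DMSO replicate 2 (0.0301).

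JQ1 and IBET151 changed the T>C cytoplasmic reads of 0 of 9 members (20.6% and 7.29% of genes called), with 2 and 4 of 9 at an unadjusted p under 0.05 in the limma fit and 0 called by edgeR and DESeq2. KLF13 passed with JQ1 without DMSO replicate 1 (adjusted p 0.0497), and KLF9 with IBET151 without IBET151 replicate 1 (0.0375). Setting JQ1-VHL against IBET151-VHL, KLF6 was the 1 member that passed (3.05% of genes called), with 32.9, 34.4 and 36.4 T>C reads with JQ1-VHL, against 9.42, 15.6 and 10.1 with IBET151-VHL, and a change of 1.51 ± 0.34 (adjusted p 0.0133). That call was lost without JQ1-VHL replicate 2 (adjusted p 0.0553), with a pseudocount of 5 (0.0596) and with median-ratio scaling (0.175), and KLF3 passed too without IBET151-VHL replicate 3 (0.0405). The T>C reads of 7 of 9 members fell with JQ1-VHL relative to JQ1 (46.5% of genes lower, 46.6% called), and 5 to 8 did when 1 library was left out. Those of 8 of 9 fell with IBET151-VHL relative to IBET151 (69.1% called and 69.1% lower), and 7 to 9 did when 1 library was left out. With median-ratio scaling 1 was lower relative to JQ1 (2.84% of genes lower) and 3 relative to IBET151 (10.7% lower), and none was higher.

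In nuclei T>C reads of 4 of 9 members fell with JQ1-VHL (60.5% of 12059 genes lower, 61.7% called) and those of 7 of 9 with IBET151-VHL (83.9% lower, 85% called). Both member shares were below those of all genes. The members' median changes were -1.47 and -2.22, against -1.92 and -3.12 over all genes. The falls of members given below are thus part of a fall of most genes. The nuclear controls were unlike in labelling. The T>C share of all reads was 8.02%, 6.34% and 2.25% in DMSO, against 1.92% to 2.41% with JQ1-VHL and 1.10% to 1.72% with IBET151-VHL. Summed ERCC-scaled T>C reads of the DMSO libraries were 1788150, 3076290 and 1529510. KLF4 had 2.68, 1.89 and 13.3 with JQ1-VHL and 0.776, 6.92 and 0 with IBET151-VHL, against 37.1, 67.2 and 57.5 with DMSO, and fell by 3.32 ± 0.87 (adjusted p 0.000897) and by 4.47 ± 0.87 (adjusted p 1.05e-06). KLF9 had 1.34, 20.8 and 15.5 with JQ1-VHL and 0, 1.73 and 4.48 with IBET151-VHL, against 23.2, 103 and 49.8 with DMSO, and fell by 2.41 ± 0.87 (adjusted p 0.0133) and by 4.35 ± 0.87 (adjusted p 1.96e-06). KLF11 had 10.0, 60.6 and 33.3 with JQ1-VHL and 7.76, 20.8 and 8.96 with IBET151-VHL, against 47.3, 218 and 146 with DMSO. The JQ1-VHL libraries of KLF11 overlapped DMSO and those of IBET151-VHL did not, and it fell by 2.02 ± 0.75 (adjusted p 0.0164) and by 3.22 ± 0.75 (adjusted p 4.01e-05). KLF13 also fell with both compounds, by 1.98 ± 0.90 (adjusted p 0.0456) and by 3.19 ± 0.90 (adjusted p 0.00061). KLF3, with 83.7, 136 and 218 with JQ1-VHL and 60.6, 50.2 and 91.8 with IBET151-VHL, against 288, 354 and 285 with DMSO, passed with IBET151-VHL (-2.22 ± 0.68, adjusted p 0.00167) and not with JQ1-VHL (-1.18 ± 0.68, adjusted p 0.112), although no library of either overlapped DMSO. KLF5 and KLF16 likewise passed with IBET151-VHL, at -1.98 and -2.20, and not with JQ1-VHL, at -1.22 and -1.47, and for these 3 genes the direct comparison of the VHL forms did not pass. KLF6 and KLF10 did not pass with either. KLF10, the early TGF-beta gene, had 32.2, 117 and 191 with JQ1-VHL and 43.5, 163 and 73.9 with IBET151-VHL, against 45.4, 173 and 239 with DMSO. Its changes were -0.46 ± 0.70 and -0.61 ± 0.70, and its nuclear T>C share was 38.0% ± 6.92 and 36.7% ± 8.63, against 39.3% ± 1.37 with DMSO, which are within the spread of replicates. The 2 members with the highest T>C shares in DMSO were the 2 without a nuclear T>C call with IBET151-VHL. These directions depend on the scale. With median-ratio scaling the median change of all genes was -0.29 with JQ1-VHL and -0.54 with IBET151-VHL, and KLF5, KLF3, KLF16 and KLF10 turned above 0 with both, at 0.73, 0.77, 0.63 and 2.36 with IBET151-VHL. On that scale KLF6 alone passed with JQ1-VHL and was higher, at 2.29 ± 0.34 (6.04% of genes higher, 8.31% lower). With IBET151-VHL KLF6 (3.05 ± 0.34) and KLF10 were higher and KLF9 was lower (13.9% of genes higher, 27.6% lower). With JQ1-VHL, KLF9, KLF11 and KLF13 lost their nuclear T>C calls without JQ1-VHL replicate 1 (adjusted p 0.118 to 0.182) or DMSO replicate 2 (0.11 to 0.161), and KLF13 without 6 other libraries too (0.0542 to 0.0675). With IBET151-VHL, KLF5 and KLF16 lost theirs without IBET151-VHL replicate 3 (0.106 and 0.168), and KLF5 without DMSO replicate 3 (0.0514). JQ1 and IBET151 gave 0 of 9 in the limma test (2.41% and 1.3% of genes called), with 0 of 9 at an unadjusted p under 0.05 and 0 called by edgeR and DESeq2. JQ1-VHL against JQ1 gave 1 lower, KLF4 (13% lower, 13.3% called), a call lost without JQ1 replicate 2 or 3 or JQ1-VHL replicate 1 (adjusted p 0.0741 to 0.134). IBET151-VHL against IBET151 gave 7 lower (81.4% lower, 81.7% called). With median-ratio scaling no member was lower than with either parent, and KLF6 alone was higher, relative to IBET151 (5.73% of genes higher). JQ1-VHL against IBET151-VHL gave 0 in nuclei (11% called), with 1 of 9 at an unadjusted p under 0.05 and 0 by edgeR and DESeq2, but 3, KLF3, KLF9 and KLF11, were higher with JQ1-VHL when its replicate 1 was left out (adjusted p 0.0044 to 0.0352).

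Other genes of the family and its pathways were counted from lists in all cytoplasmic reads. All lists, the TGF-beta list included, were chosen with earlier results of these data known. A count above the share of all genes is therefore no test of a list. Beside each count stand the same shares of all genes, 0.417% higher and 12.5% lower with JQ1-VHL and 0.465% higher and 15.4% lower with IBET151-VHL. Of 10 other KLF and SP genes tested out of 17, 1 was higher and 1 lower with JQ1-VHL and 1 higher and 2 lower with IBET151-VHL. The gene that rose was KLF2, a factor best known from endothelium and lymphocytes, with means of 3755 ± 1054 (SD, n = 3) and 4629.9 ± 1568, against 1353 ± 611 with DMSO, and changes of 1.55 ± 0.37 (adjusted p 0.0109) and 1.83 ± 0.37 (adjusted p 0.00252). It also rose with both parents, by 2.13 ± 0.37 with JQ1 (adjusted p 0.00404) and by 2.03 ± 0.41 with IBET151 (adjusted p 0.0163). SP6 fell with both VHL compounds, by 1.61 ± 0.26 and by 2.01 ± 0.26 (adjusted p 0.000772 and 7.33e-05), and SP3 with IBET151-VHL, by 0.96 ± 0.22 (adjusted p 0.00658). Of 11 cofactors and regulators of KLF proteins, 3 fell with each VHL compound and none rose. They were the acetyltransferase EP300 (changes of -0.77 and -1.14, adjusted p 0.0103 and 0.000413), the corepressor SIN3A (-0.57 and -0.69, adjusted p 0.0364 and 0.00981) and the ubiquitin ligase subunit FBXW7 (-1.02 and -1.03, adjusted p 0.0147 and 0.0107).

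The TGF-beta response list, to which KLF10 and KLF11 relate as early targets, held 14 tested genes of 16. With JQ1-VHL 8 fell and with IBET151-VHL 10 fell, and none rose, with medians of -0.85 and -1.01 against -0.17 and -0.15 over all genes. BHLHE40, a basic helix-loop-helix repressor, had means of 119 ± 43.0 and 95.2 ± 12.7, against 828 ± 235 with DMSO, and fell by 2.82 ± 0.27 and by 3.08 ± 0.27 (adjusted p 1.79e-05 and 3.17e-06). ID2, an inhibitor of such factors, fell by 2.09 ± 0.22 and by 2.62 ± 0.22 (adjusted p 3.39e-05 and 2.15e-06). The inhibitory SMAD7 fell by 1.99 ± 0.41 and by 2.76 ± 0.41 (adjusted p 0.0043 and 0.000231), and PMEPA1 by 0.93 ± 0.18 and by 1.04 ± 0.18 (adjusted p 0.00284 and 0.000768). With JQ1 and with IBET151 the same 2 genes of this list rose, CDKN2B and SKI, and 1, BHLHE40, fell (0.818% of all genes higher and 4% lower with JQ1, 0.898% higher and 1.62% lower with IBET151). BHLHE40 had means of 289 ± 61.3 with JQ1 and 242 ± 22.5 (n = 2) with IBET151, and fell by 1.5 ± 0.27 (adjusted p 0.00572) and by 1.74 ± 0.31 (adjusted p 0.00677). Of 9 tested genes known as KLF targets, 2 fell with JQ1-VHL, SMAD7 and the cyclin gene CCNE1 (-0.61 ± 0.19, adjusted p 0.0484), and 1, SMAD7, with IBET151-VHL. Among the luminal markers GATA3 and FOXA1 also fell with both VHL compounds, by 1.85 ± 0.18 and 1.84 ± 0.26 with JQ1-VHL (adjusted p 1.66e-05 and 0.000291) and by 2.08 ± 0.18 and 2.04 ± 0.26 with IBET151-VHL (adjusted p 2.15e-06 and 6.49e-05), and the other 6 of 8 luminal markers did not pass. GATA3 also fell with both parents, by 0.73 ± 0.18 with JQ1 (adjusted p 0.0258) and by 1.10 ± 0.20 with IBET151 (adjusted p 0.0071). FOXA1 fell with JQ1, by 1.08 ± 0.26 (adjusted p 0.0258), and had a change of -1.07 ± 0.29 with IBET151 (adjusted p 0.07). With XBP1 (-0.93 ± 0.24, adjusted p 0.0361), 3 of 8 fell with JQ1 and 1 of 8 with IBET151. The part of these changes in the KLF results was not tested.

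Across the 28 libraries of all reads, with each fraction centred on its mean, KLF6 was the least alike gene for every other member except KLF3, whose lowest r was with KLF13 (0.425). KLF4, KLF9 and KLF11 had Pearson r of 0.907 to 0.94 with one another, while KLF6 had r of 0.146 to 0.589 with the other 8. Among 10963 genes the nearest to KLF6 were CCNL1 (r 0.839), a cyclin of nuclear speckles, and ZNF550 (r 0.816). The nearest to KLF4 was CEBPB (r 0.967), to KLF9 DBR1 (r 0.968), to KLF11 ARF6 (r 0.978), to KLF16 GLRX2 (r 0.98) and to KLF13 HAUS1 (r 0.954). KLF5 was nearest to FAM43A (r 0.956), KLF10 to PDCD7 (r 0.95) and KLF3 to ELF3 (r 0.898). These correlations describe 28 libraries that share treatments and library scale, the low nuclear replicate 1 libraries included, and carry no p.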

How the data were processed

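RNA was read as 3′-end libraries of nuclear and cytoplasmic fractions, per the labels' protocols. The authors deposited 2 tables of signal per gene, one for all reads and one for T>C reads, and the deposited values are whole reads (100% within 0.01 of a whole number) multiplied by 1 ERCC-based factor per library. Value per read was 0.670 to 2.24 in nuclear and 0.374 to 0.951 in cytoplasmic libraries. The submitters' processing notes name bcl2fastq, Trimmomatic 0.39, HISAT2, HTSeq and DESeq2 and the builds GRCh37, hg19 and dm3, without roles. The rule by which a read was called T>C, and whether counting used strand, is not given in the sources used here, so reads from antisense genes cannot be told apart.

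The 9 genes and all gene lists were chosen with earlier results of these data known. Genes that reached 10 (all reads) or 5 (T>C reads) scaled reads in 2 or more libraries were fitted as log2(value + 1) with limma 3.58.1 in R 4.3.3, trend on, over all 14 libraries of a fraction, and the difference between fractions over all 28. Calls are Benjamini-Hochberg adjusted p under 0.05 over all genes tested. The fit was also run on simulated counts, drawn around the same mean per gene apart from set changes with JQ1-VHL. No shift of whole libraries was simulated, so that run does not cover the low nuclear libraries. edgeR 4.0.16 and DESeq2 1.42.0 on the recovered counts, other pseudocounts (0.5 and 5), filters, median-ratio scaling, a replicate block and leaving out libraries were alternatives. Leaving out the libraries numbered 927 to 937 or 963 to 973, and the replicate block within each fraction, were chosen after seeing the data. All 9 genes are named in every comparison, with up to 4 genes of each list by smallest adjusted p with a VHL compound in all cytoplasmic reads, and the genes of highest Pearson correlation among those with a mean value of at least 50.

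Replicate numbers come from the labels. The distance of each library from its group mean, per gene, correlated between libraries of the same number above 0.1 in every one of 3 pairs for all reads in both fractions in the comparisons without IBET151 (lowest r 0.203 in cytoplasm and 0.159 in nuclei), and for T>C nuclear reads in JQ1 against DMSO alone (lowest r 0.234). There the numbers were taken to pair the libraries. The block was fitted over all libraries of a fraction, those of IBET151 included. Shares and limits from a count of 0, set at 3 counts, cover counting error only.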

Additional observations from a re-analysis of the deposited data

How the results depend on the processing

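Of 5040 single-gene results with 1 library left out, 4736 kept their sign and side of the threshold, 80 lost the call, 39 gained one and 185, with no call in either fit, changed sign. Under every setting except median-ratio scaling, sign changes were limited to results with no call in either fit. Median-ratio scaling turned the sign of 74 of 324 results, and in 10 of them a call stood on at least 1 scale. It removes a common shift: it moved the median T>C change of all genes with IBET151-VHL to -0.54 in nuclei, against -3.12 as deposited, and to -1.23 in cytoplasm, against -2.89. The scaled values of these 10 were, for T>C cytoplasmic reads, 0.15 for KLF16 with JQ1-VHL, 1.72 for KLF10 with IBET151-VHL and 0.18 for KLF10 with IBET151-VHL relative to IBET151. For T>C nuclear reads with IBET151-VHL they were 0.73 for KLF5, 0.77 for KLF3, 0.63 for KLF16 and 2.36 for KLF10, and relative to IBET151 2.26 for KLF6, 0.27 for KLF3 and 0.13 for KLF16.

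How calls move with the setting is described here, and a count with no share of all genes beside it is no result about the members. Counts of members passing are given below in the order of the comparisons named. With median-ratio scaling they were, in all cytoplasmic reads, 1 higher (JQ1) and 1 higher (IBET151), and in all nuclear reads 1 higher (JQ1), 2 (JQ1-VHL, 1 higher, 1 lower), 4 (IBET151-VHL, 1 higher, 3 lower), 2 lower (JQ1-VHL against JQ1) and 1 lower (IBET151-VHL against IBET151). In T>C cytoplasmic reads they were 1 lower (JQ1-VHL), 4 (IBET151-VHL, 1 higher, 3 lower), 1 lower (against JQ1), 3 lower (against IBET151) and 0 (between the VHL forms), in T>C nuclear reads 1 higher, 3 (2 higher, 1 lower), 0 and 1 higher, and for the difference between fractions 1 higher with each VHL compound. Members' medians turned in several comparisons, among them T>C nuclear reads with JQ1 to 0.50, against -0.05 as deposited, with JQ1-VHL to 0.23, against -1.47, and with IBET151-VHL to 0.63, against -2.22, and in all nuclear reads with JQ1 to 0.30, against -0.14.

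With the replicate block they were, in all cytoplasmic reads, 1 (JQ1) and 1 (IBET151), in all nuclear reads 6 (JQ1-VHL), 1 (IBET151), 8 (IBET151-VHL), 5 (JQ1-VHL against JQ1), 8 (IBET151-VHL against IBET151) and 1 (JQ1 against IBET151), in T>C cytoplasmic reads 2 (between the VHL forms), in T>C nuclear reads 4 (JQ1-VHL against JQ1), and 1 for the fraction difference with IBET151-VHL. Comparisons with IBET151, and T>C reads except nuclear JQ1 against DMSO, did not meet the pairing check. In comparisons that met it, the block changed no other count by over 1.5 times. With the block within each fraction the fraction difference gave 1 (JQ1-VHL) and 2 (IBET151-VHL). With the run of library numbers as the block, counts were 2 and 1 in all cytoplasmic reads (JQ1, IBET151), 2, 7, 2, 8, 6 and 7 in all nuclear reads (JQ1, JQ1-VHL, IBET151, IBET151-VHL, against JQ1, against IBET151), 2 in T>C cytoplasmic and 3 in T>C nuclear reads between the VHL forms, 6 in T>C nuclear reads against JQ1, and 1 for the fraction difference with IBET151-VHL. The share of all genes called was not counted with the run block, so these counts cannot be set against it. With the replicate block that share was 26.1% (JQ1-VHL) and 46% (IBET151-VHL) in all nuclear reads.

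DESeq2 gave 1 (JQ1) and 2 (IBET151) in all cytoplasmic reads, 1 (IBET151-VHL) and 1 (against IBET151) in all nuclear reads, 3 in T>C nuclear reads against JQ1 and 1 for the fraction difference with IBET151-VHL. edgeR gave 1 in all and 2 in T>C nuclear reads against JQ1. Without libraries 927 to 937, chosen after seeing the data, counts were 3 in all cytoplasmic reads against JQ1, 4, 5, 1 and 1 in all nuclear reads (JQ1-VHL, IBET151-VHL, against JQ1, against IBET151), 0 in T>C cytoplasmic reads between the VHL forms, 2 (JQ1-VHL) and 0 (against JQ1) in T>C nuclear reads, and 1 for the fraction difference with IBET151-VHL. Without 963 to 973 they were 0 and 0 in all nuclear reads with the VHL forms, and 2 (JQ1-VHL) and 0 (against JQ1) in T>C nuclear reads. A pseudocount of 5 gave 1 (JQ1), 1 (IBET151) and 0 (between the VHL forms) in T>C cytoplasmic reads and 2 in T>C nuclear reads against JQ1. The filter at 5 times the minimum, which fewer members pass, gave 3 (JQ1-VHL), 4 (IBET151-VHL), 4 (against JQ1), 4 (against IBET151) and 2 (between the VHL forms) in T>C cytoplasmic reads and 2 in T>C nuclear reads against JQ1. The cause of these moves was not tested, apart from the loss of libraries or genes by construction.

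With 1 library left out, counts in all cytoplasmic reads ranged 0 to 1 (JQ1), 2 to 6 (JQ1-VHL), 0 to 1 (IBET151), 4 to 6 (IBET151-VHL), 3 to 6 (against JQ1) and 3 to 7 (against IBET151). In all nuclear reads they ranged 0 to 2 (JQ1-VHL), 0 to 3 (IBET151-VHL), 0 to 1 (against JQ1) and 0 to 1 (against IBET151). In T>C cytoplasmic reads they ranged 0 to 1 (JQ1), 6 to 7 (JQ1-VHL), 0 to 1 (IBET151), 7 to 8 (IBET151-VHL), 5 to 8 (against JQ1), 7 to 9 (against IBET151) and 0 to 2 (between the VHL forms). In T>C nuclear reads they ranged 1 to 4 (JQ1-VHL), 5 to 7 (IBET151-VHL), 0 to 3 (against JQ1), 6 to 8 (against IBET151) and 0 to 3 (between the VHL forms), and all other comparisons stayed at 0. Where IBET151 kept 1 library, that library was assumed to vary like the other groups. T>C reads of KLF5, KLF9, KLF13 and KLF16 in cytoplasm were few, and depth limits what can be detected there.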
